A study of Mus musculus with 16 samples.

Results

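The suckling-to-weaning switch genes described here were 10 mouse genes of the small intestine, chosen by name. The 6 suckling genes were Lct, Prdm1, Fcgrt, Ass1, Glb1 and Neu1, and the 4 adult genes were Sis, Treh, Mgam and Arg2. Histone marks were profiled by ChIP-seq in epithelial cells of the jejunum of C57BL/6 neonates at postnatal day 12, in mice with a deletion of the corepressor gene NCoR1 (KO, named DIECUN in the protocol) and in wild-type mice (WT, named F/FUN). The labels used here name neither the promoter that drove the deletion nor the number of animals per library. Each of 6 marks was measured in 1 KO and 1 WT library, so no value has a replicate error and no difference was tested. The deposited files list, for a mark, the regions where the KO library stood above the WT library or the reverse, called KO-higher and WT-higher regions here, and 10 lists with 23511 regions were used. A region belonged to a gene when, among all protein-coding genes of the mm9 gene models, its summit lay nearest to a transcription start of that gene and within 50 kb of it. By this rule 28 of the 23511 regions belonged to 5 of the 10 genes, and Ass1, Glb1, Sis, Treh and Arg2 had no region in any list.

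In suckling rodents the enterocyte digests milk lactose with lactase, takes up maternal immunoglobulin and whole milk proteins, breaks them down in large lysosomes and makes arginine. At weaning these functions are lost or reduced, and the brush border gains the enzymes that digest sucrose, trehalose and starch products, together with arginase. Prdm1 encodes a transcriptional repressor of the neonatal gut that holds back adult enterocyte genes. NCoR1 bridges nuclear receptors and other factors to histone deacetylase, and acetylation of histone H3 (H3K27ac, H3K9ac) marks active promoters and enhancers. H3K4me3 is found at active promoters, H3K4me1 at enhancers, and H3K27me3 and H3K9me3 in repressed chromatin.

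The sequences of 6 regions that carry the results are shown, from the plus strand of mm9, to let the positions below be read against the letters. The first is a Mgam region with a fold of 5.44 and no repeated stretch. It is followed by the Prdm1 region with the highest fold of that gene and the Prdm1 region in which bases 50 to 252 are shared with a region of another mark that differs in the opposite direction. The last 3 are the region at the start of Lct, the Fcgrt region with the highest fold of that gene, and the Neu1 region with the highest fold of that gene. Capitals mark the single match to the motifs searched below, AGGTCA of nuclear receptors in the Lct region.
Mgam KO-higher H3K27ac, chr6:40587650-40587854: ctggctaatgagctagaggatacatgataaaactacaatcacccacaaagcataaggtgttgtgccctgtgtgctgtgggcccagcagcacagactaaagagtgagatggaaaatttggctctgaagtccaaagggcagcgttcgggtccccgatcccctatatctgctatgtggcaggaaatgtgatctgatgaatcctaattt
Prdm1 KO-higher H3K27ac, chr10:44141845-44142031: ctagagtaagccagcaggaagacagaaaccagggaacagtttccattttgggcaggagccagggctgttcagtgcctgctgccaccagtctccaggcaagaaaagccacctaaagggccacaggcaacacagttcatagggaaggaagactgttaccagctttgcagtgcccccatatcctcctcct
Prdm1 WT-higher H3K4me3, chr10:44178643-44178894: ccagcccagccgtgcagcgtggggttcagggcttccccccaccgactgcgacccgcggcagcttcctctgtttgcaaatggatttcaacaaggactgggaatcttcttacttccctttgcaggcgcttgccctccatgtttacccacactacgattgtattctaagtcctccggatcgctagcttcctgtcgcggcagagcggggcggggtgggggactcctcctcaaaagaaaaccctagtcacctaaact
Lct WT-higher H3K4me3, chr1:130224417-130224575: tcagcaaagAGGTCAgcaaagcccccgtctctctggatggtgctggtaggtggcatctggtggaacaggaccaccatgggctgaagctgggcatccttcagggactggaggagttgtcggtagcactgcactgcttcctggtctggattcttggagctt
Fcgrt KO-higher H3K27ac, chr7:52360422-52360591: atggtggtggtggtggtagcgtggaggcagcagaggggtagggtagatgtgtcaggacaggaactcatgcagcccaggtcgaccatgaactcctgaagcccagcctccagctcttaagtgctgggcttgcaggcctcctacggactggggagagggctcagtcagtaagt
Neu1 WT-higher H3K4me3, chr17:35070843-35071069: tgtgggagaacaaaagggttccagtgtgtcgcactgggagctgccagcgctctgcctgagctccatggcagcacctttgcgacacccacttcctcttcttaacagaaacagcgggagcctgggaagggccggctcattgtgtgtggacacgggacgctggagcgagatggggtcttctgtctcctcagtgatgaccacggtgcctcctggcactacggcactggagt

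The 28 regions fell into acetylation that was higher in KO and methylation of H3K4 that was higher in WT. KO-higher H3K27ac lay at 4 of the 10 genes (Lct, Prdm1, Fcgrt and Mgam) in 19 regions, where 11.6% of all 21693 protein-coding genes had at least 1 such region. KO-higher H3K9ac lay at 3 genes (Lct, Prdm1 and Mgam), 1 region each, beside 4.02% of all genes. WT-higher H3K4me3 lay at 3 genes (Lct, Prdm1 and Neu1) in 5 regions, beside 15.3% of all genes, and WT-higher H3K4me1 lay at Neu1 in 1 region, beside 7.61%. With 10 genes chosen by name, these counts describe the genes and place them in no order against other lists. No region of the other 6 lists belonged to a switch gene. Those lists were WT-higher H3K27ac (7.58% of all genes), WT-higher H3K9ac (7.63%), KO-higher H3K4me3 (0.3%), WT-higher H3K27me3 (0.867%), KO-higher H3K9me3 (2.28%) and WT-higher H3K9me3 (1.09%). Counted over all marks, 38.6% of genes had a region in some list, so a gene with no region was the more frequent case. In bulk chromatin, a larger share of cells with a mark and more of the mark per cell cannot be told apart.

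**Figure D1:**
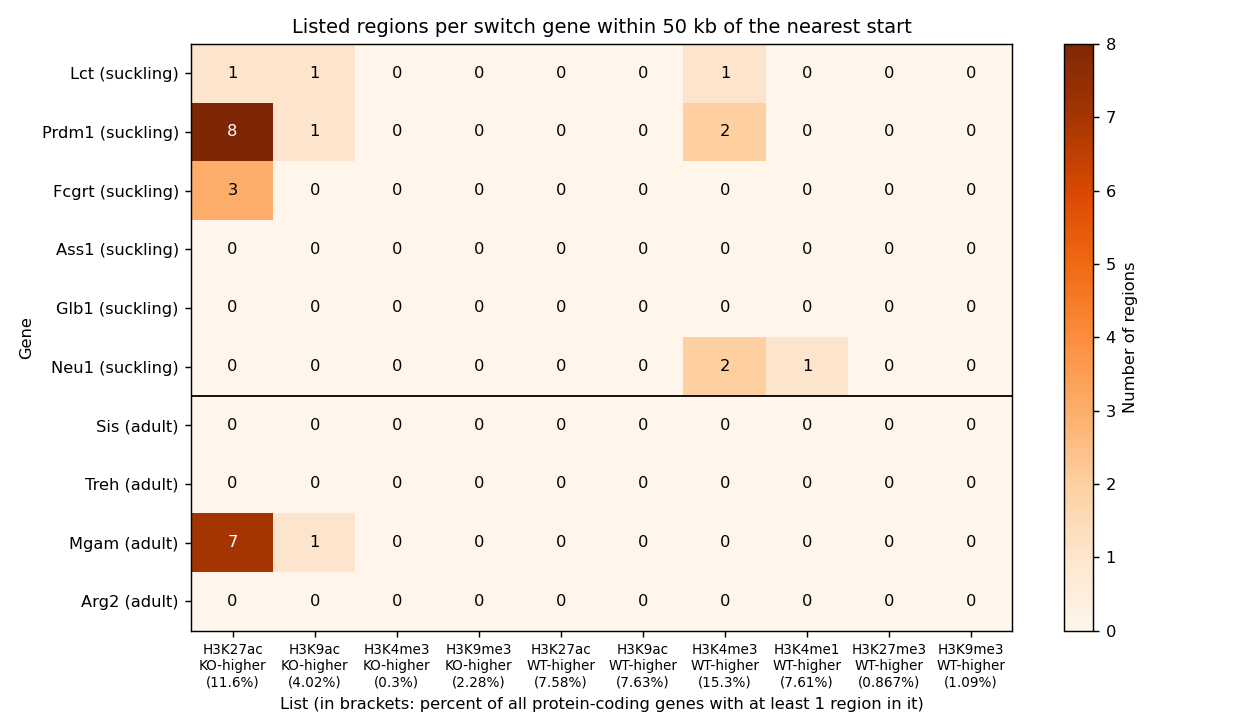
Number of listed regions within 50 kb of the nearest start for each switch gene (rows, suckling genes above the line and adult genes below) in each of the 10 lists (columns, with the percent of all protein-coding genes that have a region in that list). The filled cells lie in 4 of the 10 columns, and the darkest are H3K27ac at Prdm1 (8 regions) and at Mgam (7 regions).

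Both directions were found among the suckling genes, and among the adult genes the KO-higher one alone. The 6 suckling genes had 14 KO-higher regions at 3 genes and 6 WT-higher regions at 3 genes, with Lct and Prdm1 in both sets. The 4 adult genes had 8 KO-higher regions, all at Mgam, and no WT-higher region. Over all genes, 14.5% had a KO-higher region of any mark and 28.8% a WT-higher one. These shares do not cover the same marks, because H3K4me1 and H3K27me3 had no usable KO list and enter the WT-higher share only. Any listed region of these 2 marks is therefore WT-higher by construction. H3K4me3, which has both lists, was also uneven, with a WT-higher region at 15.3% of all genes and a KO-higher one at 0.3%. The KO-higher folds at suckling genes ranged from 1.53 to 4.59 with a median of 2.64, and those at Mgam ranged from 2.72 to 6.38 with a median of 4.24. These ranges overlapped between 2.72 and 4.59. Since 1 adult gene supplied every adult value, the contrast is between Mgam and 3 suckling genes, not between classes of genes.

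Levels below are the number of tags over the summit of a region after the larger library was scaled to the smaller, and a fold is the authors' ratio of these levels after a pseudocount of 1 is added to each. The level of the genotype with less signal was recovered from the fold and is the caller's local background estimate, which can exceed the true level at the summit. Levels of different marks come from different libraries and are not compared. Each region was listed because of the direction of its difference, so the direction of the values below is fixed by the list, and only their sizes and positions are described.

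Prdm1 (chromosome 10, 44156983 to 44248307, minus strand, with 3 annotated starts) had 11 regions, the most of the 10 genes. Its 8 KO-higher H3K27ac regions spread over 74.1 kb, 5 in introns and 3 downstream of the gene. A count of 8 or more in this list was found at 114 genes, 0.526% of all. The stretch in which a Prdm1 start is the nearest was 169.8 kb, longer than that of 96.1% of genes (median over all genes 45.2 kb), and its part in the count was not tested.

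The highest Prdm1 fold was 4.59, in a region downstream of the gene (44141845 to 44142031) with a level of 40 in KO, against 7.94 in WT. It exceeded 94.5% of the folds of its list. Neighbouring downstream regions had 76 in KO against 23.8 in WT (44141020 to 44141465, fold 3.10) and 56 in KO against 16.9 in WT (44144949 to 44145119, fold 3.19). These 3 regions lay 103.285 to 106.978 kb from the most upstream start.

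Inside Prdm1 the KO-higher H3K27ac regions varied more. The intronic region at 44214961 to 44215125 had 35 in KO and 8.93 in WT (fold 3.63), and the one at 44190207 to 44190415 had 25 in KO and 8.93 in WT (fold 2.62). The levels were 116 in KO and 44.7 in WT at 44172936 to 44173113 (fold 2.56), and 97 in KO and 43.7 in WT at 44197923 to 44198242 (fold 2.19). The lowest fold and the highest level of the gene met in 1 region, 220 bp upstream of an internal start (44178692 to 44178899), with 137 in KO and 89.3 in WT (fold 1.53). Only 3.15% of the list had a lower fold. Of the 8 regions, 6 were above the list median of 2.52. KO-higher H3K9ac was listed in an intron at 44196397 to 44196691, with 55.1 in KO and 20 in WT (fold 2.67, list median 2.91).

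H3K4me3 at Prdm1 differed in the opposite direction. Near the most upstream start, 676 bp into the gene (44247585 to 44247735), H3K4me3 was 23.1 in KO and 60 in WT, a fold of 2.53 for WT over KO. At the internal start (44178643 to 44178894) it was 47.9 in KO and 85 in WT, a fold of 1.76. The list median was 2.10, between these values. The region at the internal start shared 203 bp with the KO-higher H3K27ac region of fold 1.53 named above, and their summits were 75 bp apart, so the same internal start held more H3K27ac and less H3K4me3 in KO than in WT. These are also the smallest fold of each mark at the gene. The -log10 of the caller's q-value was 2.98 for this H3K27ac region and 2.87 for this H3K4me3 region. Both calls are lost when a -log10 q of 5 is required.

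Lct, the gene of lactase (chromosome 1, 130181333 to 130224895, minus strand, 2 annotated starts), had the same mixture of marks with 1 region each. H3K27ac in an intron, 5.732 kb into the gene (130219078 to 130219252), was 86 in KO and 28.8 in WT, a fold of 2.92 that exceeded 65.6% of its list. H3K9ac in a coding exon, 24.338 kb into the gene (130200466 to 130200610), was 37.9 in KO and 11 in WT, a fold of 3.24 (list median 2.91). H3K4me3 at the start went the other way, with 45.3 in KO and 87 in WT (130224417 to 130224575), a fold of 1.90 for WT over KO, in a coding exon 391 bp from the start. Thus the acetylated regions with more signal in KO lay inside Lct, and the H3K4me3 region with less signal in KO lay at its start. KO-higher acetylation together with WT-higher H3K4me3 was found at 442 genes, 2.04% of all, of which Lct and Prdm1 were 2.

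**Figure D2:**
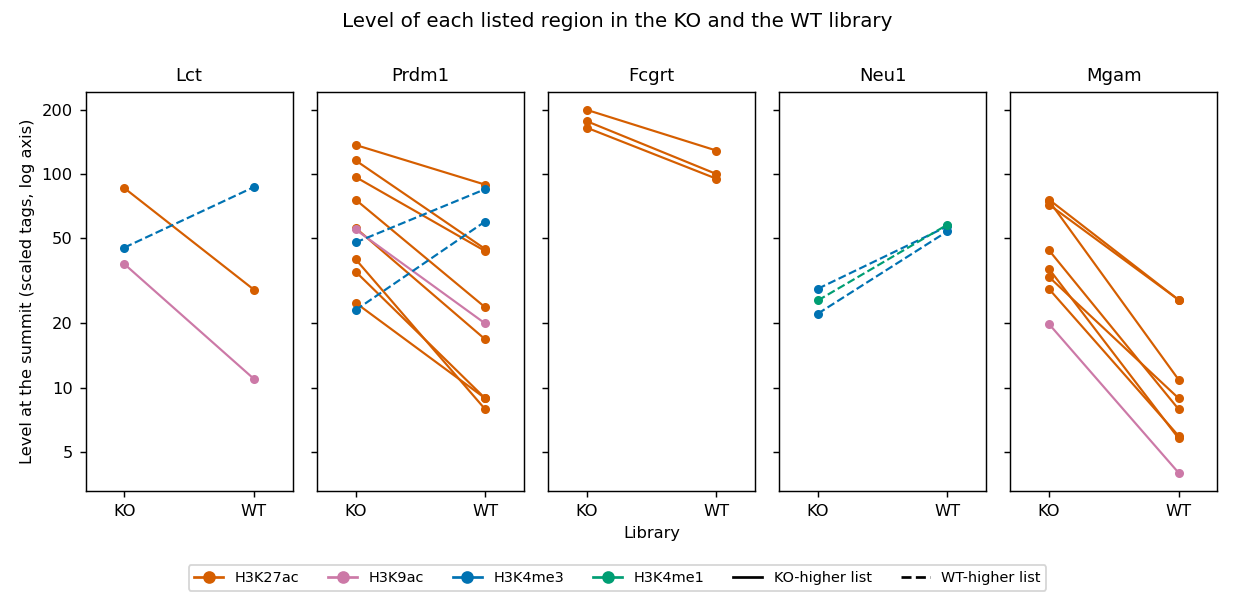
Level at the summit of each of the 28 regions in the KO and the WT library (scaled tags, log axis), with a line joining the values of 1 region and 1 panel per gene. Solid lines (KO-higher lists) run down to WT at Lct, Prdm1, Fcgrt and Mgam, and dashed lines (WT-higher lists) run up to WT at Lct, Prdm1 and Neu1.

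Fcgrt encodes the heavy chain of the neonatal Fc receptor, which carries maternal immunoglobulin from milk across the enterocyte. The gene (chromosome 7, 52348363 to 52359192, minus strand) had 3 KO-higher H3K27ac regions within 2.7 kb around its start and no region of another mark. Their levels were 200 in KO and 129 in WT in a coding exon (52357904 to 52358081, fold 1.55), 165 in KO and 95.3 in WT at 552 bp upstream of the start (52359665 to 52360016, fold 1.72), and 177 in KO and 100.2 in WT at 1337 bp upstream (52360422 to 52360591, fold 1.76). Over the 3 regions, levels were 165 to 200 in KO and 95.3 to 129 in WT. They were the highest H3K27ac levels at any switch gene, whereas the folds exceeded only 3.85% to 11.8% of the list. A further KO-higher H3K27ac region in an intron of Fcgrt (52352926 to 52353097) had 94 in KO and 43.7 in WT (fold 2.13) but lay nearer to a start of Rcn3, 5.4 kb away, and was not counted.

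Of the lysosomal enzymes, Neu1, a sialidase that removes sialic acid from glycoproteins, had only WT-higher regions. The gene (chromosome 17, 35068198 to 35072898, plus strand) had WT-higher H3K4me3 in coding exons 817 bp and 2218 bp from the nearest start. The levels were 29.1 in KO and 57 in WT at 35069585 to 35069770 (fold 1.93 for WT over KO), and 22.2 in KO and 54 in WT at 35070843 to 35071069 (fold 2.37). H3K4me1 downstream of the gene (35077834 to 35078010) was 25.6 in KO and 58 in WT, a fold of 2.22 where the list median was 2.94. KO-higher H3K27ac lay near Neu1 only at other genes, with 108 in KO and 47.6 in WT at Slc44a4 (15400 bp from a Neu1 start) and 130 in KO and 61.5 in WT at Hspa1b (14087 bp).

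Neu1 was also the only switch gene in the authors' deposited table of RNA, which is limited to genes that lie near a WT-higher H3K4me1 region. In the authors' deposited table its log2 fold change, read as KO over WT, was -0.02 with an adjusted p-value (FDR) of 1. There, 75 of 1296 genes (5.79%) were higher and 136 (10.5%) lower in KO at an FDR under 0.05. The RNA of the other 9 genes was not analysed here.

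Mgam encodes maltase-glucoamylase, a brush border enzyme that releases glucose from starch products. The gene (chromosome 6, 40578830 to 40719122, plus strand, 2 annotated starts) had 7 KO-higher H3K27ac regions within 23.5 kb around its upstream start, a number reached by 164 genes (0.756% of all), and all 7 were above the list median of 2.52. Upstream of the start, H3K27ac was 29 in KO and 5.95 in WT at 40571978 to 40572182 (fold 4.31) and 72 in KO and 25.8 in WT at 40575865 to 40576080 (fold 2.72). The region 215 bp past the start (40578949 to 40579164) had 44 in KO and 7.94 in WT, a fold of 5.03. The folds of these 3 regions spanned 2.72 to 5.03, with the highest at the start. The stretch in which an Mgam start is the nearest was 71.8 kb, longer than that of 71.2% of genes. Its part in the count of 7 was not tested.

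Farther into the introns of Mgam the differences were as large. H3K27ac was 33 in KO and 8.93 in WT at 40582997 to 40583163 (fold 3.42), 76 in KO and 25.8 in WT at 40586466 to 40586636 (fold 2.87) and 36 in KO and 5.80 in WT at 40587650 to 40587854 (fold 5.44). The region with the highest fold, 40595174 to 40595471, had 75 in KO and 10.9 in WT, a fold of 6.38 that ranked 61 of 7111. KO-higher H3K9ac lay within the same region (40595217 to 40595363, summits 42 bp apart), with 19.9 in KO and 4 in WT (fold 4.17). Over the 7 H3K27ac regions, levels were 29 to 76 in KO and 5.80 to 25.8 in WT.

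Repeated sequence touched Mgam alone. Of the 28 regions, 24 consisted of 50-base stretches that occur once in mm9, and the other 4 were all at Mgam. In the region of fold 6.38, 68.3% of the stretches were unique, and the others occurred in up to 9651 copies. The H3K9ac region inside it was unique in 48% of its stretches, and the region at 40586466 in 24.6%. Reads from such stretches may be placed at another copy, and their part in these values was not tested. Among the 5 Mgam H3K27ac regions that were at least 90% unique, KO levels were 29 to 72 and WT levels 5.80 to 25.8, with folds of 2.72 to 5.44 and a median of 4.31. The stretch of 50 bases follows the 50 sequencing cycles of the labels; the file headers give a tag size of 75, and uniqueness at that length was not computed.

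**Figure D3:**
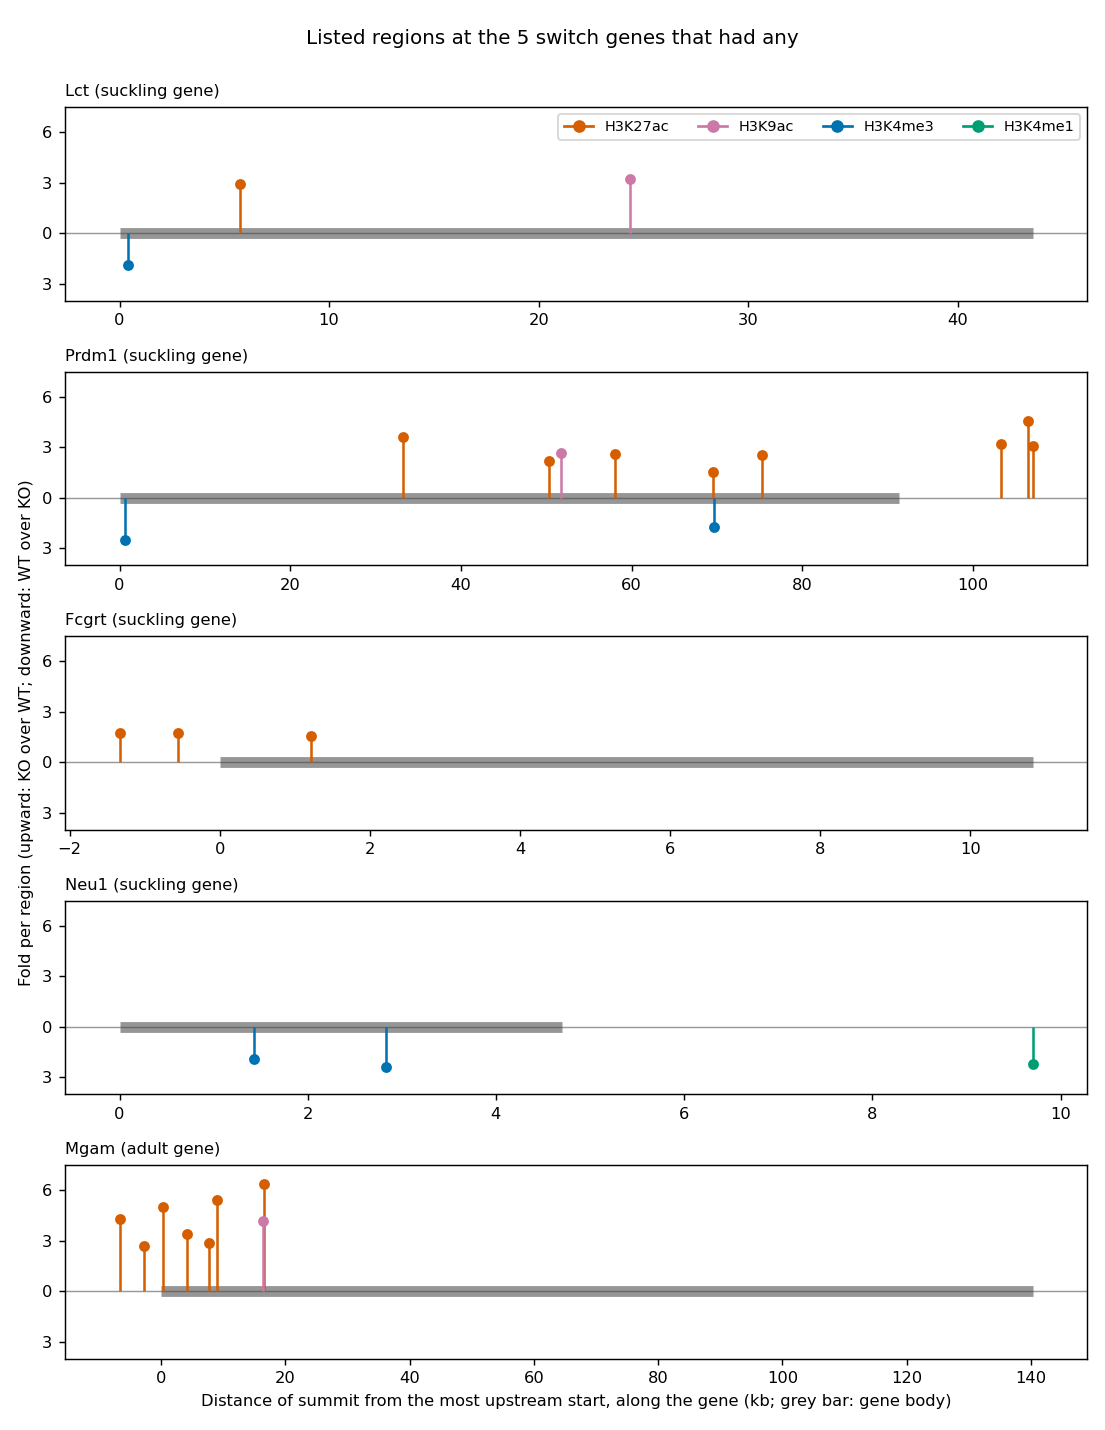
Position of each region along its gene (distance of the summit from the most upstream start in kb, in the direction of transcription, grey bar for the gene body) and its fold, drawn upward for KO over WT and downward for WT over KO. The downward lines at Lct and Prdm1 stand at annotated starts, and the 7 H3K27ac lines at Mgam stand within 23.5 kb around its upstream start.

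The 50 kb limit left out 2 regions nearest to a switch gene within 4 times that distance. KO-higher H3K27ac in an intron of Mgam (chromosome 6, 40664905 to 40665077), 72.2 kb from the nearest start, was 31 in KO and 4.25 in WT, a fold of 6.10. KO-higher H3K27ac 175.5 kb upstream of Prdm1 was 103 in KO and 41.7 in WT, a fold of 2.44. Just inside the limit, the farthest region was the one downstream of Prdm1 at 37.164 kb, with a fold of 3.10.

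For the 5 genes without a region, the nearest listed regions belonged to neighbours. Ass1, argininosuccinate synthase of arginine synthesis, had KO-higher H3K27ac 17.9 kb away in an intron of Hmcn2, with 73 in KO and 41.7 in WT (fold 1.73), and WT-higher H3K9ac 37.9 kb away, nearer to Fubp3 (fold 4.58). Glb1, the lysosomal beta-galactosidase, had WT-higher H3K4me1 12.5 kb away and WT-higher H3K27ac 33 kb away, both nearer to Crtap. A WT-higher H3K27ac region in an intron of Glb1 (chromosome 9, 114376415 to 114376628) had 8 in KO and 26.8 in WT (fold 3.09), and lay nearest to a start of Ccr4. Within 50 kb of a start, Glb1 thus had differences in the WT direction only, and Ass1 in both directions.

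The other adult genes were farther from any difference. Sis, sucrase-isomaltase, had no listed region nearer than 98.5 kb and no KO-higher H3K27ac nearer than 755.6 kb. Treh, trehalase, had WT-higher H3K4me1 27.9 kb away at Phldb1 and no KO-higher H3K27ac nearer than 159.9 kb. Arg2, the mitochondrial arginase, had KO-higher H3K9ac at 80.7 kb, at Rdh12, and no KO-higher H3K27ac nearer than 142.2 kb. Absence from a list means that the caller's threshold was not passed, and does not show that KO and WT had the same level.

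**Figure D4:**
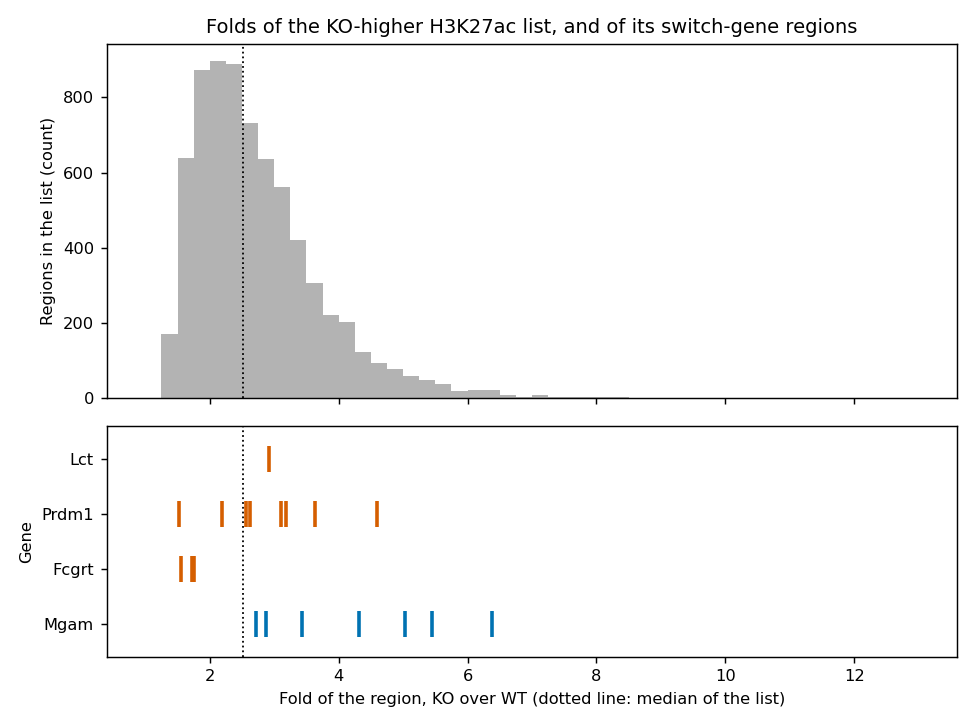
Histogram of the folds (KO over WT) of all 7111 KO-higher H3K27ac regions, above the folds of the regions at Lct, Prdm1 and Fcgrt (orange, suckling genes) and Mgam (blue, adult gene), 1 tick per region. The dotted line is the list median of 2.52, with all Fcgrt ticks (1.55 to 1.76) left of it and all Mgam ticks (2.72 to 6.38) right of it.

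Sequence in 300 bases around each summit was searched on both strands for motifs of nuclear receptors and of factors known in enterocytes. AGGTCA, the core bound by nuclear receptors, was found in 2 of 19 KO-higher H3K27ac regions (10.5%, at Fcgrt and Prdm1), beside 20.4% of 7094 regions of the list on assembled chromosomes. In WT-higher H3K4me3 it was found in 3 of 5 regions (60%, at Lct and Neu1), beside 12.3% of 4141. Its direct repeats AGGTCANAGGTCA and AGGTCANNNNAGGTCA, and CAAAGTC of HNF4, were found in none of the 28 windows; they occurred in 0.113%, 0.0282% and 3.82% of the KO-higher H3K27ac list.

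GTGAAAG, bound by PRDM1, was found in no window, beside 4% of the KO-higher H3K27ac list. AGATAA of GATA factors was found in 2 of 19 KO-higher H3K27ac regions, both at Mgam, beside 8.47% of the list, in 2 of 3 KO-higher H3K9ac regions, at Mgam and Prdm1, beside 9.99%, and in 1 of 5 WT-higher H3K4me3 regions, at Neu1, beside 3.84%. Both Mgam H3K27ac regions with AGATAA hold repeated stretches, with 24.6% and 68.3% of their 50-base stretches unique. The Mgam H3K9ac window overlaps the second of these, with summits 42 bp apart, so these 2 matches are not separate observations. TTTATG of CDX factors was found in 1 of 19 KO-higher H3K27ac regions, at Mgam, beside 8.87%. The single AGGTCA in the printed Lct region spans bases 10 to 15 of the plus strand. A match of letters describes the sequence and not a bound site. GC content of the windows was 44.7% to 55.7% at the Mgam H3K27ac regions, 41.7% to 58.3% at Prdm1 and 54.7% to 56.7% at Fcgrt, beside a list median of 52.7%. The 5 WT-higher H3K4me3 windows had 52.7% to 61.3%, all below their list's median of 64%.

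Related genes were counted in lists chosen by function, with earlier results of these data known. The same holds for the markers below. Their shares describe the listed genes only, and the shares of all genes are printed for reference. Here too, H3K4me1 and H3K27me3 could count in the WT direction only. Of 29 lysosomal genes, 10 had a KO-higher region (34.5%, beside 14.5% of all genes) and 13 a WT-higher one (44.8%, beside 28.8%), led in the KO direction by Lipa, the acid lipase (H3K9ac 53.3 in KO and 11.6 in WT, fold 4.32), and Ctsb, cathepsin B (H3K9ac, fold 4.16). In the WT direction, cathepsin L, Ctsl, had the highest fold (H3K4me1, 4.29 for WT over KO), followed by Arsb (H3K4me3, 3.79). Ctsl also had KO-higher H3K27ac and H3K9ac, and its RNA log2 fold change in the authors' deposited table was 0.42 with an FDR of 0.00055. H3K27ac was KO-higher at all 10, the mark in which Neu1 and Glb1 had no KO-higher region.

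Of 15 genes of arginine and urea metabolism, 7 had KO-higher H3K27ac (46.7%, beside 11.6% of all genes), with the highest folds at Cps1, carbamoyl phosphate synthetase (35 in KO and 5.95 in WT, fold 5.18), and Slc3a1, a subunit of a transporter of basic amino acids (fold 4.39). WT-higher regions lay at 8 of the 15 (53.3%, beside 28.8%), with the highest folds at Slc25a13 (H3K9me3, 5.13 for WT over KO) and Oat (H3K4me1, 4.50). Oat was also among the genes with KO-higher H3K27ac. In the authors' deposited table the RNA log2 fold change of Cps1 was -0.09 with an FDR of 0.79.

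Of 16 genes listed as other brush border enzymes, 6 had a KO-higher region (37.5%, beside 14.5% of all genes) and 9 a WT-higher one (56.2%, beside 28.8%). The neutral ceramidase Asah2 (H3K9ac, fold 5.89) and the aminopeptidase Enpep (H3K27ac, fold 4.75) led the KO direction, and Lctl (H3K27ac, fold 4.52) and Enpep (H3K9ac, fold 4.04) the WT direction. Whether Lctl acts at the brush border was not checked, and it is part of the WT-higher count. Enpep thus had acetylation that was higher in KO at 1 place and higher in WT at another. Akp3, an intestinal alkaline phosphatase, had WT-higher H3K4me1, and its RNA log2 fold change in the authors' deposited table was 3.88 with an FDR of 1.77e-33.

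Of 15 genes of neonatal uptake and immunoglobulin transport, 7 had a KO-higher region (46.7%, beside 14.5% of all genes) and 6 a WT-higher one (40%, beside 28.8%). B2m, which encodes the light chain that pairs with the product of Fcgrt, had KO-higher H3K27ac with 55 in KO and 14.9 in WT (fold 3.53). The transcription factor Maf had KO-higher H3K9ac (fold 4.55) and WT-higher H3K27ac (5.20 in KO and 23.8 in WT), and the endocytic receptor Lrp2 had WT-higher H3K9ac (fold 5.21). Of 20 regulators of enterocyte maturation, 14 had a KO-higher region (70%, beside 14.5% of all genes) and 10 a WT-higher one (50%, beside 28.8%). Ppara, a nuclear receptor of fatty acid use (H3K9ac, fold 7.11), and Hnf4g (H3K9ac, fold 6.49) had the highest KO-higher folds, and Thrb (H3K4me1, 2.79) and Bach1 (H3K27ac, 2.72) the highest WT-higher ones. Thrb and Bach1 also had KO-higher H3K9ac.

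Markers of the cells sampled moved in the same direction as acetylation at Lct, Prdm1, Fcgrt and Mgam. Of 10 enterocyte markers, 9 had KO-higher H3K27ac (90%, beside 11.6% of all genes) and 7 had KO-higher H3K9ac (70%, beside 4.02%). None had WT-higher H3K27ac or H3K9ac, and 2, Krt20 and Slc15a1, had WT-higher H3K4me1. Vil1, counted for both marks, was KO-higher in H3K27ac, H3K9ac, H3K4me3 and H3K9me3, active and repressive marks alike. Its H3K9me3 region had 196 in KO and 1.77 in WT (fold 71.03). The H3K27ac and H3K9ac at Vil1 are therefore not read as a trait of enterocyte markers. In the authors' deposited table the RNA log2 fold change was 1.10 for Krt20 (FDR 4.53e-20) and 0.55 for Slc15a1 (FDR 1.33e-09). KO-higher regions lay at 0 of 8 immune markers, at 1 of 9 stromal and endothelial markers (Col3a1, H3K9me3) and at 0 of 4 hepatic or pancreatic markers. WT-higher regions lay at 1 immune marker (Ikzf1) and 1 endothelial marker (Cdh5). Their part in the values at the switch genes was not tested. Sequencing gave 27946003 to 47976125 tags per library. Removal of duplicates left between 23925163 and 32444815, and the share kept was lowest for H3K9ac, with 56% in KO and 64.3% in WT.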

How the data were processed

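ChIP-seq libraries of 6 histone marks (1 KO and 1 WT library each) were used, and the 4 inputs (2 KO, 2 WT) were not. Reads of 50 cycles were mapped to mm9, per the labels' protocols. Tools named in the submitters' processing notes are Bowtie2 2.2.9, MACS2 2.1.1, CASAVA 1.8.2 and HOMER 3.12, whereas the file headers name MACS 2.0.10.20130419. Tags are 75 bases long per the file headers, against 50 cycles in the labels, and neither difference was resolved. Per the file headers, each list was called with the other genotype's library as control, at a q cutoff of 0.05 and with 1 tag kept per position. The deposited values, per the file headers, are a signal (the pileup over the summit), the fold (a ratio to the local background in the other library) and -log10 of the p-value and q-value. Of 12 deposited lists, KO H3K4me1 and KO H3K27me3 repeat the WT list and were left out. The authors' deposited RNA table gives a log2 fold change and an FDR, an adjusted p-value; its direction was read from the column name, and its 12 per-library columns were not used.

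Regions were assigned to starts of protein-coding genes of GENCODE models of mm9 on chromosomes with regions (21693 genes). Levels of the lower genotype were computed from pileup and fold with the pseudocount of 1; Poisson p-values rebuilt from them were within 0.1 of the deposited -log10 p in 99.99% of regions. No test was made, as each comparison is between 2 libraries. Assignment was tested on simulated data. Sequences are shown for a chosen 6 of the 28 regions. Tag numbers are those of the file headers, and their counting error alone limits low levels. The switch genes and gene lists were chosen with earlier results of these data known. All 10 switch genes are named, and of each other list the 2 genes per direction with the highest fold. Others named (Akp3, the RNA of Cps1 and Ctsl, neighbouring genes and markers) were chosen after values were seen. Alternatives varied the distance, the thresholds, the gene assignment, the merging of regions and the uniqueness of sequence. Analyses used Python 3.11.15, numpy 2.4.6, pandas 2.3.3, scipy 1.17.1 and matplotlib 3.10.9.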

Additional observations from a re-analysis of the deposited data

How the results depend on the processing

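Counts at the switch genes were recomputed under 11 alternatives, 9 planned and 2 added after seeing the data (every region within 50 kb whether nearest or not, and regions at least 90% unique). Of 88 values, 75 stayed within 1.5 times the reported count. The 14 KO-higher regions at suckling genes became 6 within 10 kb, 5 when the fold had to reach 3 and 7 when only the most upstream start of each gene was used. The 6 WT-higher regions at suckling genes became 1 when -log10 q had to reach 5, 0 when the fold had to reach 3 and 14 with every region within 50 kb. Suckling genes with a WT-higher region numbered 1, 0 and 6 under those alternatives instead of 3, and suckling genes with a KO-higher region numbered 5 instead of 3 with every region within 50 kb. The WT-higher region left at a -log10 q of 5 was Prdm1 H3K4me3 near the most upstream start. With every region within 50 kb, 1 adult gene (Treh) had 1 WT-higher region instead of 0. The genes with any region changed as well. Ass1 gained a region with the most upstream start only, Glb1 with the gene body and 5 kb beyond, and both with every region within 50 kb. Neu1 lost all its regions at a -log10 q of 5, and both Fcgrt and Neu1 did at a fold of 3. The 8 KO-higher regions at Mgam became 5 with regions at least 90% unique. The stricter alternatives keep fewer regions by construction. Replicates could not be left out, and depth was compared only through the caller's scaling. No paired analysis was possible because each mark has 1 library per genotype and no test was made.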
